A study of Homo sapiens with 14 samples.

Results

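SW620 colorectal cancer cells carrying the catalytic domain of TET2 (SW620-TET2CD) were compared with cells carrying a FLAG control vector (SW620-FLAG) after every cell with a count of TET2 or of 4 genes that accompany it had been taken out. The cells were chosen by 3 limits on quality and 1 on expression. They held 200 to 4500 genes, 1000 to 20000 UMIs (each UMI tags 1 captured RNA molecule) and at most 10% mitochondrial UMIs. They also held no UMI of TET2, H19, RAB34, CALML3 or SBSPON. Of 67056 cell barcodes in the series, 48282 passed the quality limits and 38938 of these had none of the 5 genes, 22504 in SW620-FLAG and 16434 in SW620-TET2CD.

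SW620 is a cell line from a lymph node metastasis of a colorectal carcinoma. Both lines were grown as long-term culture (LTC), in which colonies grow without passage, and 1 single-cell library was made of each line on days 6, 9, 12 and 15. The sample labels name the control cultures SW620 only, and the study's text gives them as SW620-FLAG. The sources used here do not give the promoter behind the transgene or say whether each line is a clone or a pool. A difference between the lines therefore cannot be told apart from a difference in how the 2 lines were derived, and with 1 library per line and day no condition has a replicate of its own.

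TET2 is a dioxygenase that oxidises 5-methylcytosine in DNA to 5-hydroxymethylcytosine and further products, a route by which methylated cytosines next to guanines (CG sites) are returned to the unmodified state. Its catalytic domain is sufficient for this chemistry. In the colon, loss of methylation at promoters can restore transcription of silenced genes, and epithelial-mesenchymal transition (EMT) and WNT signalling drive the spread and growth of colorectal tumours.

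The 5 genes took far more cells out of SW620-TET2CD than out of SW620-FLAG. Of the 4 genes beside TET2, H19 is an imprinted noncoding RNA, RAB34 a small GTPase of vesicle traffic and CALML3 a calmodulin-like protein. In SW620-TET2CD 36.3%, 36.9%, 29.1% and 25% of quality cells were removed on days 6, 9, 12 and 15. The shares in SW620-FLAG, which has no transgene and so gives the background of the rule, were 10.1%, 5.13%, 6.59% and 2.78%. The widest exact Clopper-Pearson 95% interval, that of SW620-TET2CD on day 12, ran from 27.7% to 30.6%, and these intervals cover counting error only. The lines differed by 25.7 percentage points on average over the 4 days. TET2 itself had a UMI in 27.9%, 24.1%, 19.6% and 17.2% of SW620-TET2CD quality cells and in 2.69%, 1.65%, 4.68% and 2.17% of SW620-FLAG cells. The SW620-FLAG cells removed on day 6 were mostly those with CALML3 alone (284 of 559 cells), and on day 15 those with TET2 alone (148 of 192 cells). Cells just outside the rule, with a UMI of exactly 1 of the 5 genes, were 14.1% to 16.2% of SW620-TET2CD quality cells and 2.75% to 9.88% of SW620-FLAG cells. Of the 7949 removed SW620-TET2CD cells, 5603 had a UMI of TET2 itself, so the removed cells are named here by the rule and not by the transgene. Since these genes chose the cells, the shares are a description and not a test.

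**Figure D1:**
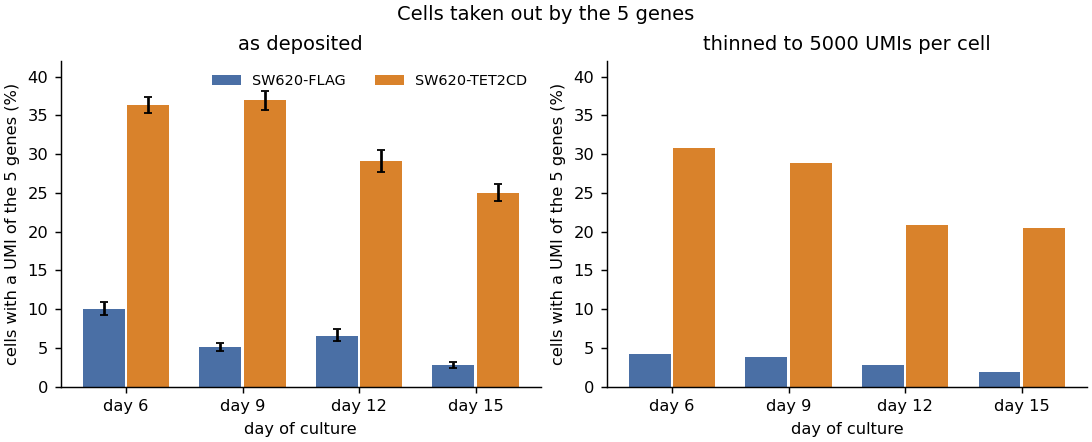
Share of quality cells with at least 1 UMI of the 5 genes (y axis, percent) in each library, by day (x axis) and line (colour). The left panel counts all UMIs, with exact 95% binomial intervals as bars, and the right panel counts cells thinned to 5000 UMIs. The SW620-TET2CD bars, from 25% to 36.9% on the left and from 20.5% to 30.8% on the right, stand above every SW620-FLAG bar.

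A cell without a UMI of the 5 genes is not shown to lack them, because the chance of counting a molecule grows with depth. In SW620-TET2CD on day 15 the rule removed 12.5% of cells with 1000 to 5000 UMIs, 23.0% of those with 5000 to 10000 and 33.5% of those with 10000 to 20000. The removed share was higher in the deepest than in the shallowest cells in all 8 libraries. Kept cells had a median of 13437, 6604, 13046 and 7095 UMIs in SW620-FLAG and of 8402.5, 11025, 12164 and 7960 UMIs in SW620-TET2CD on the 4 days. The gap between the lines went both ways, with SW620-TET2CD shallower on days 6 and 12 and deeper on days 9 and 15, so its mean of -158 UMIs (SW620-TET2CD minus SW620-FLAG, SD 3929 over 4 days) does not show equal depth. An exact sign-flip permutation test (two-sided) gave p = 0.875, but 4 days can give no p below 0.13. The summed UMIs of the kept cells lay between 33551831 and 66162897 per library, so that 3 counts, the level a gene at 0 may still have, correspond to 0.0473 to 0.0857 CPM, UMI counts scaled to a common library total. No more than 13 barcodes were shared between any 2 libraries.

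The kept cells carried the markers of an epithelial line. EPCAM stood between 493 and 670 CPM in the 8 libraries and KRT8, KRT18 and KRT19 were each above 1200 CPM, while the differentiated colon markers KRT20, CEACAM5 and LGALS4 were at or below 1.70 CPM and CDX1 was at 0. PTPRC, the marker of all leukocytes, was at 0 in 7 libraries and MS4A1, a B cell marker, in all 8. Of 12 epithelial markers 10 were tested between the lines, and CDH17 alone (10%) passed, as lower, against 1.19% of all tested genes. CDH17 reached the filter on low counts in 4 SW620-FLAG but only 3 SW620-TET2CD libraries, so its call is no support for the markers as a set. A UMI of MKI67, TOP2A, CENPF or RRM2, which mark dividing cells, was present in 90.3%, 79.3%, 24.2% and 18.0% of kept SW620-FLAG cells and in 87.7%, 84.7%, 35.1% and 24.2% of kept SW620-TET2CD cells on the 4 days. SW620-TET2CD had the higher share on days 9, 12 and 15. Calls in cells with none of the 4 marks are given below, but the part of dividing cells in the gene differences was not tested. On day 6 only 484 of 4988 kept SW620-FLAG cells and 639 of 5192 kept SW620-TET2CD cells had none of the marks. Whether a mark is counted also depends on depth.

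To ask how the lines differed in these cells, UMIs were summed per library and tested with edgeR's quasi-likelihood test with the day as a block, which sets each SW620-TET2CD library against the SW620-FLAG library of the same day. Of 16031 genes tested, 258 (1.61%) passed an adjusted p of 0.05, of which 67 (0.418%) were higher and 191 (1.19%) lower in SW620-TET2CD. All 67 higher genes and 185 of the 191 lower ones had the same direction on 4 of 4 days, as had 20.5% of all tested genes. The test read these same 4 days, so a shared direction is close to a condition of the call and no added support. A change of more than 2-fold was seen in 22 of the higher and 58 of the lower genes. With all quality cells, the same test called 690 of 16521 genes (4.18%), 386 higher (2.34%) and 304 lower (1.84%), and 221 of the higher genes were above 2-fold. Of the 67 genes higher without the removed cells, 63 were also called higher with them, as were 142 of the 191 lower genes in their direction.

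This count rested on the day block, without which 0 genes were called (edgeR, 178 at an unadjusted p under 0.05). It also leaned on day 9, since leaving out SW620-TET2CD day 9 gave 83 genes and leaving out SW620-FLAG day 9 gave 89, while leaving out any other library gave 179 to 254. In cells with none of the 4 dividing marks 210 genes were called, 67 higher and 143 lower.

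The 12 named higher genes included the long noncoding RNA genes CASC15, MIAT and LINC02413. CASC15 (ENSG00000272168, GRCh38 chr6:21664184-22654455, plus strand), stood on the 4 days at 2.98, 4.25, 3.66 and 4.76 CPM in SW620-FLAG against 12.4, 16.1, 19.5 and 36.4 CPM in SW620-TET2CD. The 4 SW620-TET2CD libraries were all above the 4 SW620-FLAG libraries, a separation found upward in 0.518% of tested genes. The fit gave a log2 fold change of 2.34, or 5.06-fold (standard error, SE, 0.15, Benjamini-Hochberg adjusted p = 2.16e-05, edgeR). With all quality cells the log2 fold change was 3.73, and in the removed SW620-TET2CD cells CASC15 averaged 121 CPM. Kept cells that also lacked any UMI of the 10 genes that rank highest in the removed cells, an alternative added after the data had been seen, gave 2.23.

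EPHA4, a receptor tyrosine kinase for ephrins (ENSG00000116106, GRCh38 chr2:221418027-221574202, minus strand), had the deepest fall of the 12 named lower genes. It stood at 3.31, 5.74, 17.0 and 32.5 CPM in SW620-FLAG against 1.16, 2.15, 5.60 and 10.6 CPM in SW620-TET2CD. EPHA4 climbed with the days in both lines, so the ranges overlap, but it was lower in SW620-TET2CD on each day, with a log2 fold change of -1.55 (SE 0.10, adjusted p = 2.16e-05, edgeR), 2.92-fold lower.

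Sequences at these 2 genes are shown because CG sites are where TET2 acts. They are the 250 bases before the first start that RefSeq lists, on GRCh38.p14, 5′ to 3′ on the strand of the gene, in lower case with each CG in capitals. For CASC15 the 2 annotations differ, and the window lies inside the gene as GENCODE places it above.
CASC15, chr6:21666163-21666412, plus strand: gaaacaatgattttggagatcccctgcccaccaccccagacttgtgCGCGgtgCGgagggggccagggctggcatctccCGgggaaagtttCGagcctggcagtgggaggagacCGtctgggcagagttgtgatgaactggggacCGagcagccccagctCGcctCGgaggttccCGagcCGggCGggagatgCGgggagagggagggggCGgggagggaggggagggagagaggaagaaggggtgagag
EPHA4, chr2:221574203-221574452, minus strand: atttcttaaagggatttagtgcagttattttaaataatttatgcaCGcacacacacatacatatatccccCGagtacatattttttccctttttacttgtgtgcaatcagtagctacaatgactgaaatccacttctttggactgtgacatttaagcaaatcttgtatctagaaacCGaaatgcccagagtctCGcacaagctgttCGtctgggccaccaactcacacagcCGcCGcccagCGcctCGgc
The window of CASC15 holds 14 CG sites and that of EPHA4 holds 9, a count that is the same on both strands. Over 27305 genes of the table the median was 11, and 93.6% of windows held at least 1. The 3′ counts do not show which start a gene uses, and methylation was not measured in the data used here.

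MIAT, another long noncoding RNA, stood at 8.29, 4.60, 3.3 and 1.27 CPM in SW620-FLAG against 15.2, 15.0, 17.8 and 5.18 CPM in SW620-TET2CD, higher on 4 of 4 days with a log2 fold change of 1.70 (SE 0.20, adjusted p = 0.00117, edgeR). The levels fell with time in SW620-FLAG, and the 2 lines overlapped only through the day 15 library of SW620-TET2CD. LINC02413 rose by 1.35 on the log2 scale. IGFBP2, a secreted binding protein for insulin-like growth factors, stood at 16.4, 16.9, 9.25 and 7.25 CPM in SW620-FLAG against 38.3, 36.1, 28.2 and 15.1 CPM in SW620-TET2CD, with a log2 fold change of 1.25 (SE 0.11, adjusted p = 0.000131, edgeR).

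SOX5, a transcription factor, had 10.5, 10.1, 10.6 and 6.04 CPM in SW620-FLAG against 17.1, 20.2, 20.3 and 15.4 CPM in SW620-TET2CD, with no overlap and a log2 fold change of 0.99 (adjusted p = 0.000768, edgeR). SOX2, a pluripotency factor, had 123, 121, 24 and 9.74 CPM against 162, 170, 60.1 and 19.6 CPM, a log2 fold change of 0.79 (adjusted p = 0.0164, edgeR) within a fall over time in both lines. BCL11A, a zinc finger repressor, rose by 0.66. The other named higher genes were ADAMTS18, a secreted metalloprotease (0.94), LIPC, hepatic lipase (0.85), DHRS3, a retinal reductase (0.73), ARFGEF3 (0.72) and NXN, nucleoredoxin (0.65, with no overlap between the lines). DHRS3 lost its call when any library of days 6, 9 or 15 was left out. LIPC and ARFGEF3 lost theirs without either library of day 9, and BCL11A without SW620-TET2CD day 9. CASC15, LINC02413, LIPC and NXN were higher in the removed than in the kept SW620-TET2CD cells on each of the 4 days. BCL11A was lower there on each day, and the other named higher genes went both ways. With all quality cells LINC02413, LIPC and NXN had log2 fold changes of 1.74, 1.23 and 1.04.

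**Figure D2:**
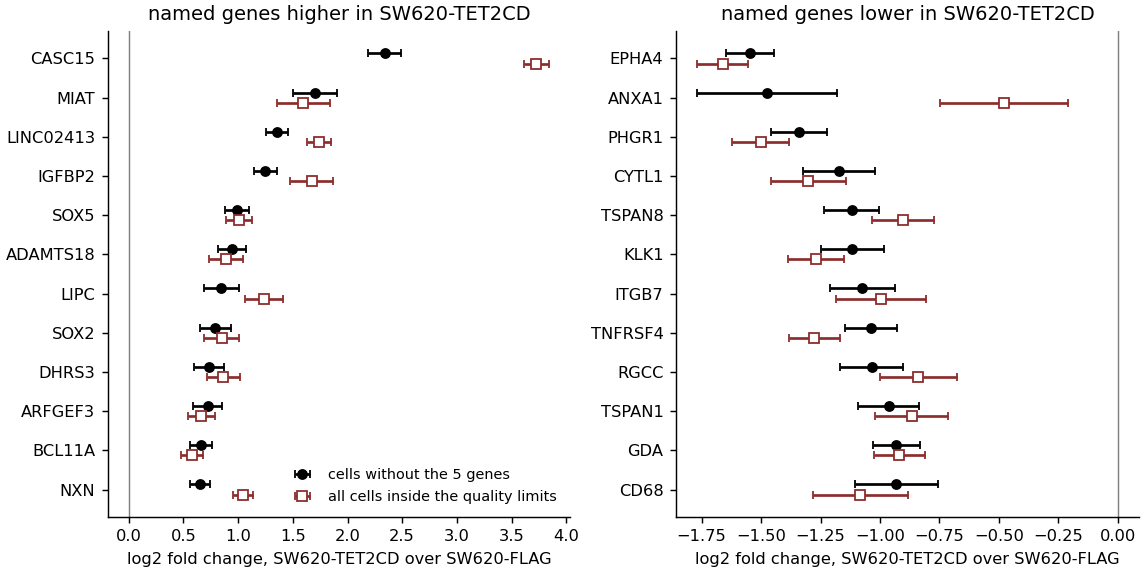
Fitted log2 fold change of SW620-TET2CD over SW620-FLAG (x axis) with its standard error (bars) for the 12 named higher genes (left) and the 12 named lower genes (right), in cells without the 5 genes (black circles) and in all quality cells (open red squares). CASC15 moves from 2.34 to 3.73 and ANXA1 from -1.48 to -0.48 when the removed cells are put back, while SOX5 stands at 0.99 and 1.01.

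**Figure D3:**
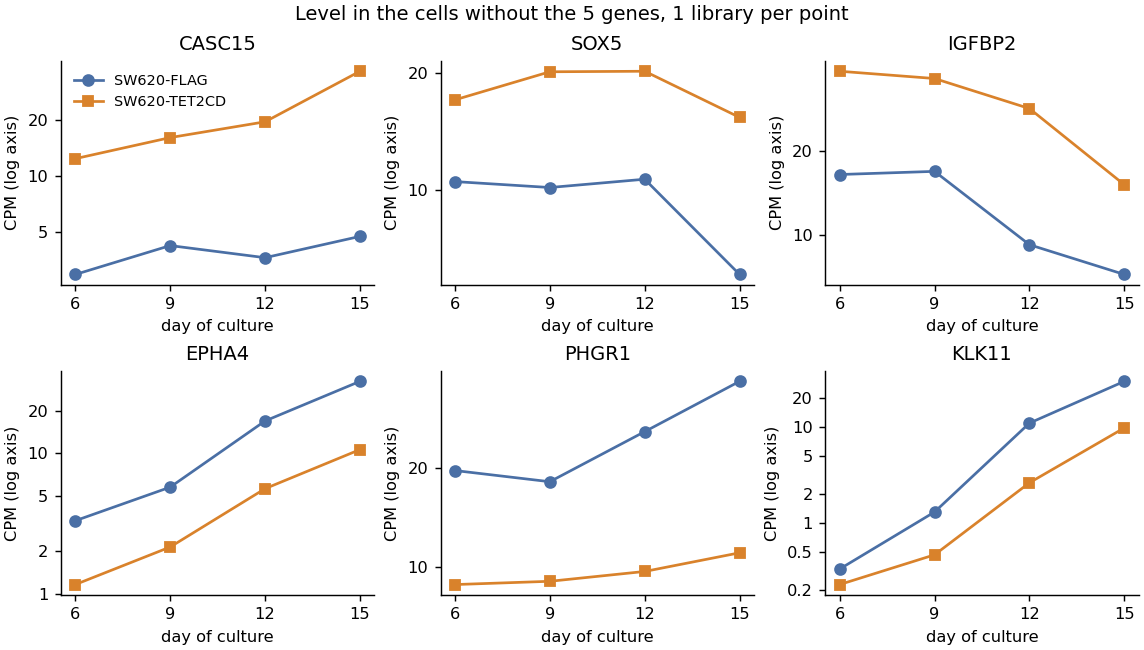
Level in CPM (y axis, log scale) by day of culture (x axis) for 6 genes in the cells without the 5 genes, each point 1 library, blue for SW620-FLAG and orange for SW620-TET2CD. CASC15, SOX5 and IGFBP2 are higher and EPHA4, PHGR1 and KLK11 lower in SW620-TET2CD on each day.

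The 12 named lower genes included the membrane proteins TSPAN8, TSPAN1, ITGB7 and TNFRSF4 and the secreted CYTL1 and KLK1. PHGR1, an intestinal epithelial gene, stood at 19.7, 18.2, 25.9 and 37.0 CPM in SW620-FLAG against 8.8, 9.01, 9.66 and 11 CPM in SW620-TET2CD. CYTL1, a secreted cytokine-like protein, stood at 47.6, 27.6, 40.01 and 78.0 CPM and at 23.1, 18.3, 16.8 and 22.5 CPM. TSPAN8, a tetraspanin of tumour cell membranes, stood at 28.9, 20.1, 33.7 and 45.4 CPM and at 14.1, 9.74, 18.9 and 15.4 CPM. In these 3 genes all SW620-TET2CD libraries were below all SW620-FLAG libraries, as in 0.574% of tested genes, with log2 fold changes of -1.34 (adjusted p = 0.00019), -1.17 (adjusted p = 0.00253) and -1.12 (adjusted p = 0.000546), all by edgeR.

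Several of the other named lower genes had their highest level on day 15 in both lines. ITGB7, an integrin subunit, stood at 7.0, 6.45, 21.2 and 61.3 CPM in SW620-FLAG against 4.70, 3.15, 10.5 and 20.7 CPM in SW620-TET2CD (log2 fold change -1.07, adjusted p = 0.00243, edgeR). TSPAN1 stood at 3.55, 5.37, 26.9 and 81.9 CPM and at 2.17, 3.68, 13.1 and 32.1 CPM (log2 fold change -0.96, adjusted p = 0.00273, edgeR). TNFRSF4, the costimulatory receptor OX40, fell by 1.04, RGCC, a cell cycle regulator, by 1.03 and GDA, guanine deaminase, by 0.93 on the log2 scale. ANXA1 and KLK1 are taken up below. Each level is a sum over all kept cells of a library, here and in the other single-cell results. A lower sum cannot be told apart from a smaller share of cells with a high level. The study reports a lower percentage of its Type V cells, which it likens to cells outside the colonies, with TET2CD. The part of such a shift in these differences was not tested.

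CD68, a lysosomal protein used as a macrophage marker, was also among the named lower genes. It stood at 1.97, 1.89, 9.72 and 39.2 CPM in SW620-FLAG against 1.80, 1.33, 4.09 and 15.6 CPM in SW620-TET2CD, a log2 fold change of -0.93 (adjusted p = 0.0203, edgeR). Of the 9 leukocyte markers, 3 were tested and CD68 (33.3% of them) alone passed as lower, against 1.19% of all tested genes. Their summed level ran from 7.80 to 61.9 CPM in SW620-FLAG against 8.12 to 35.1 CPM in SW620-TET2CD, nearly all of it CD68 and LYZ, with PTPRC at or below 0.02 CPM and MS4A1 at 0 in all 8 libraries. The call of CD68 was lost without SW620-TET2CD day 9 and without either library of day 15.

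Secreted and surface proteases and their inhibitors were the list with the most calls. The list joins enzymes that cut matrix and growth factors with the inhibitors that hold them back, so its members have opposed roles. Of 28 members tested, 9 were lower in SW620-TET2CD and 0 higher, against 1.19% of all tested genes lower, and 27 had a fold change below 0. Like the other lists, it was chosen with earlier results of these data known. Its share is therefore a description and not a test of the list. The list does not hold ADAMTS18, the secreted metalloprotease named above as higher, so the count of 0 higher depends on which genes were listed. The median log2 fold change of the list was -0.39, with a median of -0.00 over all tested genes. The 9 were PRSS2, PRSS22, KLK8, KLK10, KLK11, PLAU, PLAUR, SERPINA1 and TIMP3. PRSS22 is no support for the list, since it reached the filter on low counts in 4 SW620-FLAG but only 3 SW620-TET2CD libraries. With all quality cells the list had 9 lower and 2 higher members, and 5 of the 9 above were among the lower ones there. The count was 7 to 11 under most alternatives, 5 without SW620-TET2CD day 15, 6 without SW620-FLAG day 15, 14 when genes of low count were kept in, and 0 when the day was left out of the fit.

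The kallikreins, serine proteases encoded side by side on chromosome 19, all had fold changes below 0 where tested, and 4 of 8 passed, against 1.19% of all tested genes lower. KLK1 is among the 4 and was named for its rank, not from the list. KLK11 stood at 0.331, 1.30, 11 and 30.0 CPM in SW620-FLAG against 0.228, 0.466, 2.63 and 9.82 CPM in SW620-TET2CD, a log2 fold change of -1.68 (SE 0.17, adjusted p = 0.000478, edgeR). KLK10 fell by 1.30 and KLK8 by 1.64 (adjusted p = 0.0108 and 0.0238, edgeR), and KLK7 had a log2 fold change of -1.67 (adjusted p = 0.0794, edgeR). KLK6 had a log2 fold change of -0.43 and missed the threshold (adjusted p = 0.0548, edgeR), which it passed under 9 alternatives, DESeq2 (adjusted p = 0.008) and upper-quartile scaling among them, with 37.1, 48.2, 168 and 205 CPM against 26.3, 40.5, 132 and 133 CPM. KLK1, tissue kallikrein, stood at 20.04, 31.4, 54.0 and 60.8 CPM in SW620-FLAG against 12.1, 16.4, 25.3 and 18.8 CPM in SW620-TET2CD, a log2 fold change of -1.12 (adjusted p = 0.0014, edgeR). The levels of KLK10, KLK11 and KLK8 lay near or below 1 CPM on days 6 and 9, so the line difference was read mainly on days 12 and 15. Calls of KLK8 and KLK10 were lost without either library of day 15, and that of KLK8 also with DESeq2 (adjusted p = 0.0906), when TET2 alone chose the cells and without the 8% of cells with most UMIs.

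Trypsinogen PRSS2 stood at 5.41, 13.8, 58.3 and 53.0 CPM in SW620-FLAG against 3.58, 9.12, 21.9 and 30.2 CPM in SW620-TET2CD, a log2 fold change of -0.88 (adjusted p = 0.0061, edgeR). It has close copies, and reads shared between trypsinogens may have been split or lost in counting. The urokinase system fell in both of its parts, PLAU, the enzyme, by 0.80 (adjusted p = 0.0198, edgeR) and PLAUR, its receptor, by 0.84 (adjusted p = 0.0209, edgeR). PLAUR stood at 5.47, 2.71, 21.8 and 84.5 CPM in SW620-FLAG against 3.24, 2.73, 11.1 and 34.4 CPM in SW620-TET2CD, so it was not lower on day 9. The call of PLAU was lost without either library of day 9, and that of PLAUR without either library of day 6 or of day 15.

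Of the inhibitors, SERPINA1, which blocks neutrophil elastase, stood at 48.2, 77.0, 129 and 114 CPM in SW620-FLAG against 27.6, 40.9, 81.9 and 59.2 CPM in SW620-TET2CD, lower on 4 of 4 days and by 0.83 on the log2 scale in the fit (SE 0.09, adjusted p = 0.000847, edgeR). TIMP3, an inhibitor of metalloproteases, stood at 3.45, 2.69, 3.20 and 6.64 CPM and at 1.69, 0.888, 0.514 and 2.61 CPM, with no overlap and a log2 fold change of -1.53 (adjusted p = 0.00265, edgeR). PRSS22 had a log2 fold change of -0.74 (adjusted p = 0.0304, edgeR), a call lost under 13 alternatives besides the missing day block. It reached the filter on low counts in 4 SW620-FLAG but only 3 SW620-TET2CD libraries, so its call is no support for the list. The alternatives were TET2 alone as the rule, cells thinned to 5000 UMIs, cells without the deepest 8%, cells with none of the dividing marks, and the fits without any library of days 6, 9 or 15.

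**Figure D4:**
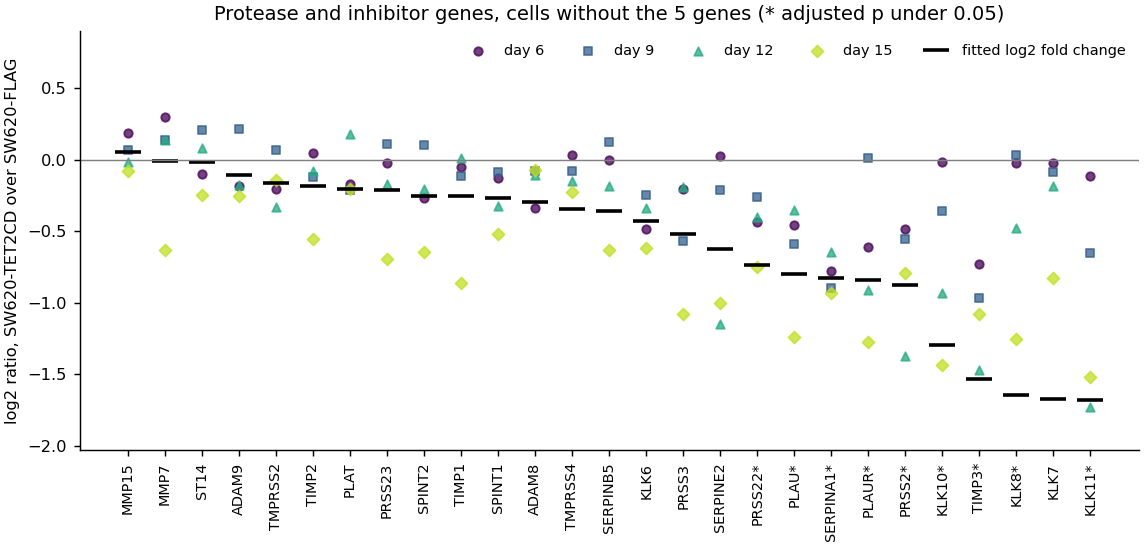
Log2 ratio of SW620-TET2CD to SW620-FLAG (y axis) for 27 of the 28 tested protease and inhibitor genes (x axis), in the cells without the 5 genes. Symbols are the ratio of each day, computed with a pseudocount of 1 CPM that draws low genes such as KLK8 toward 0, and black dashes are the fitted log2 fold change. The fitted value is below 0 in 26 of the genes shown, and asterisks mark the 9 past the threshold.

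Keratins are the filament proteins of epithelia. Of 12 keratins tested, KRT17 and KRT23 (16.7%) were lower and none higher, against 1.19% of all tested genes lower, 11 had a fold change below 0 and the median was -0.50. The line difference of KRT23 cannot be told apart from the effect of the removal, as set out below. Its call is therefore no support for the list. KRT8 and KRT18, the main keratins of the line, had log2 fold changes of -0.27 and -0.31 (adjusted p = 0.512 and 0.509, edgeR). The call of KRT17 (-0.75) was lost under 11 alternatives besides the missing day block. Its log2 fold change was -0.49 when TET2 alone chose the cells, -0.47 in cells thinned to 5000 UMIs and -0.37 in cells with none of the dividing marks, and the call was also lost without the 8% of cells with most UMIs, without SW620-TET2CD day 9 and without any library of days 6 or 15. Of 25 genes of epithelial junctions, CDH17 and CLDN1 (8%) were lower, against 1.19% of all tested genes. CLDN1, a tight junction claudin, stood at 29.8, 27.9, 38 and 66.7 CPM in SW620-FLAG against 20.4, 18.0, 23.0 and 37.2 CPM in SW620-TET2CD, a log2 fold change of -0.69 (adjusted p = 0.00243, edgeR). CDH17, the intestinal cadherin, was low in both lines, at 1.34 to 3.01 CPM and at 0.147 to 0.686 CPM, and fell by 1.96 (adjusted p = 0.00518, edgeR). The filter on low counts asked for 4 libraries at or above 0.215 CPM, which CDH17 reached in 4 SW620-FLAG but only 3 SW620-TET2CD libraries, so its call is no support for the list. CDH1, the epithelial cadherin, had a log2 fold change of 0.07 (adjusted p = 0.809, edgeR).

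Of 17 EMT genes tested, FN1 (5.88%) was lower and none was higher, against 1.19% of all tested genes lower and 0.418% higher, with a median of -0.18. FN1, fibronectin, stood at 6.65, 5.01, 7.65 and 1.99 CPM in SW620-FLAG against 2.87, 3.00, 3.57 and 1.27 CPM in SW620-TET2CD, a log2 fold change of -0.95 (adjusted p = 0.00442, edgeR). VIM, vimentin, stood at 588, 422, 311 and 453 CPM and at 493, 286, 306 and 186 CPM, lower on 4 of 4 days but with a log2 fold change of -0.53 that did not pass (adjusted p = 0.188, edgeR) except when genes of low count were kept in or day 12 was left out. ZEB1, a transcription factor of EMT, had a value of 0.01 (adjusted p = 0.978, edgeR). Of 14 genes of the TGF-β and BMP response none was called, near the 1.61% of all tested genes, and their median was -0.11. Of 16 genes of intestinal differentiation, PHGR1 (6.25%) was the only one called, against 1.61% of all tested genes, and 14 had a fold change below 0.

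In the WNT list, 1 of 28 members (3.57%) was called, against 1.61% of all tested genes. AXIN2 and LGR5, both targets of the pathway, had log2 fold changes of 0.11 and -0.01, and CCND1 had -0.32 (adjusted p = 0.717, 0.981 and 0.184, edgeR). The gene called was DKK4, a secreted WNT inhibitor that is itself induced by WNT, with 1 UMI in all kept SW620-FLAG cells and 164 UMIs in kept SW620-TET2CD cells. This is a ratio of 219 per UMI counted, with a 95% interval from 38.8 to 8715 that covers counting error only. DKK4 passed the filter on low counts through the SW620-TET2CD libraries alone, so its call is no support for the list. It stood at 0.935, 0.355, 0.314 and 2.35 CPM in kept SW620-TET2CD cells and at a mean of 28.4 CPM in the removed ones.

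Of 14 imprinted genes tested, whose alleles are marked by methylation according to parental origin, 4 (28.6%) were called, against 1.61% of all tested genes, and the median was 0.05. PLAGL1, a zinc finger factor, rose by 0.84 (adjusted p = 0.00832, edgeR), from 3.28, 4.34, 6.84 and 4.12 CPM in SW620-FLAG to 5.27, 6.63, 11.2 and 10.6 CPM in SW620-TET2CD. GRB10 rose by 1.03 (adjusted p = 0.0309, edgeR), a call kept under 11 of 26 alternatives. It was lost with DESeq2, in cells with at least 5000 UMIs or thinned to that number, with the 20% mitochondrial limit, with the rule on 10 more genes, without any library of days 9, 12 or 15 and without the day block. CDKN1C, a cyclin-dependent kinase inhibitor, and its neighbour SLC22A18 fell by 0.52 and 0.56 (adjusted p = 0.0117 and 0.0246, edgeR), and both missed the threshold in cells with none of the dividing marks and without either library of day 9, CDKN1C also without either library of day 6. In cells with none of the dividing marks the log2 fold change of CDKN1C was -0.35, and that of SLC22A18 was -0.50. IGF2 had a log2 fold change of -0.76 (adjusted p = 0.295, edgeR). H19, an imprinted gene as well, belongs to the rule and was not tested.

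Among the genes of DNA methylation, 0 of 14 tested members passed in the edgeR test, near the 1.61% of all tested genes, and their median was 0.07. TET1, TET3 and DNMT1 had log2 fold changes of 0.19, 0.18 and 0.09 (adjusted p = 0.474, 0.599 and 0.8, edgeR). Of 3 genes the study names as TET2 targets, VEGFA had a log2 fold change of -0.28 (adjusted p = 0.217, edgeR) and RORA one of -0.32 (adjusted p = 0.582, edgeR), and SPARC did not pass the filter on low counts.

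Of 19 targets of NF-κB and chemokines, CXCL1, CXCL8 and TNFAIP2 (15.8%) were higher and none was lower, against 0.418% of all tested genes higher, with a median of -0.13. CXCL1, a neutrophil chemokine, stood at 1.61, 0.875, 1.44 and 0.690 CPM in SW620-FLAG against 3.1, 1.64, 3.09 and 1.86 CPM in SW620-TET2CD, with no overlap and a log2 fold change of 1.08 (adjusted p = 0.0062, edgeR). TNFAIP2 rose by 1.34 and CXCL8 by 0.61 (adjusted p = 0.0014 and 0.0162, edgeR), the latter not without either library of day 6 or of day 9. TNFAIP2 averaged 16.7 CPM in the removed SW620-TET2CD cells, against 2.03 to 4.54 CPM in the kept ones. Of 22 genes of the integrated stress response and serine synthesis, 2 (9.09%) were lower, against 1.19% of all tested genes. NUPR1, a stress-induced chromatin protein, stood at 2.87, 2.10, 1.78 and 1.90 CPM in SW620-FLAG against 0.661, 0.178, 0.571 and 0.171 CPM in SW620-TET2CD, with no overlap and a log2 fold change of -2.51 (adjusted p = 0.000846, edgeR). NUPR1 reached the filter on low counts in 4 SW620-FLAG but only 2 SW620-TET2CD libraries, so its call is no support for the list. PHGDH, the entry enzyme of serine synthesis, fell by 0.65 (adjusted p = 0.0093, edgeR), a call lost without either library of day 9.

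With 1.61% of all tested genes called, a short list can hold none, so a count of 0 is no result about it. Most of the large programmes of the cell held no called member in the edgeR test. This was so for 26 hypoxia targets (median log2 fold change -0.07), 20 glycolysis genes (-0.06), 37 nuclear and 13 mitochondrial subunits of oxidative phosphorylation (-0.05 in both), 25 replication genes (0.14) and 25 mitosis genes (0.13). It was also so for 26 interferon-stimulated genes (-0.05), 19 genes of MHC class I presentation (-0.15), 23 of sterol and fatty acid synthesis (-0.07), 23 immediate early genes (-0.18) and the 3 tested of 38 cancer-testis genes (0.23). Of 7 metallothioneins MT1A (14.3%) was lower, against 1.19% of all tested genes (-0.49, adjusted p = 0.0477, edgeR), a call lost under 18 alternatives besides the missing day block, upper-quartile scaling among them. Of 13 stem cell markers 2 (15.4%) were called, against 1.61% of all tested genes, SOX2 as higher and ALDH1A1 as lower. ALDH1A1 reached the filter on low counts in 3 SW620-FLAG libraries but only 1 SW620-TET2CD library, so its call is no support for the list. None of these medians compares the list with other genes by a test.

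A small set of genes was lower in the kept SW620-TET2CD cells than in SW620-FLAG but higher in the removed cells. Of the 191 lower genes, 8 (4.19%) were more than 2-fold higher in the removed than in the kept SW620-TET2CD cells, as were 8 of the 67 higher genes (11.9%) and 0.917% of all tested genes. The 8 lower genes were ANXA1, APOBEC3G, C6orf132, CYB5R2, KRT23, SLC16A6, SLC52A3 and TFF2, named after their values had been seen. The removed cells were chosen by expression, so these ratios are a description. Taking out cells with more of a gene lowers its level in the cells that are kept. The rule took far more cells out of SW620-TET2CD than out of SW620-FLAG, and both ratios share the kept SW620-TET2CD value. The line differences and p-values of these genes below therefore cannot be told apart from the effect of the removal, whose part was not tested.

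KRT23, an epithelial keratin (ENSG00000108244, GRCh38 chr17:40922700-40937646, minus strand), stood at 18.2, 24.2, 43.3 and 46.2 CPM in SW620-FLAG against 10.3, 14.6, 22 and 25 CPM in kept SW620-TET2CD cells, a log2 fold change of -0.86 (adjusted p = 0.000546, edgeR). In the removed SW620-TET2CD cells it was higher than in the kept ones by 1.30 to 1.45 on the log2 scale on the 4 days, and in SW620-FLAG the removed cells were higher by 0.19 to 0.49. With all quality cells the line difference of KRT23 was -0.19 (adjusted p = 0.409, edgeR). ANXA1, annexin A1, a lipid-binding regulator of inflammation, stood at 46.5, 17.3, 3.42 and 9.30 CPM in SW620-FLAG against 29.5, 7.57, 1.11 and 0.831 CPM in kept SW620-TET2CD cells, a log2 fold change of -1.48 (SE 0.29, adjusted p = 0.0256, edgeR). Removed SW620-TET2CD cells were higher than kept ones by 1.48 to 2.27, and with all quality cells the difference was -0.48 (adjusted p = 0.468, edgeR). The call of ANXA1 was lost with DESeq2, when TET2 alone chose the cells, and without either library of day 9.

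APOBEC3G, a cytidine deaminase of antiviral defence, changed sign between the sets of cells. It stood at 7.16, 7.02, 10.6 and 13 CPM in SW620-FLAG against 4.11, 4.17, 6.86 and 5.77 CPM in kept SW620-TET2CD cells, a log2 fold change of -0.84 (adjusted p = 0.00295, edgeR), and at a mean of 29.1 CPM in the removed cells. With all quality cells its log2 fold change was 0.45 (adjusted p = 0.025, edgeR). TFF2, a secreted trefoil peptide of the gut lining, had a log2 fold change of -0.62 (adjusted p = 0.0126, edgeR) without the removed cells and of -0.02 with them. ALDH1A1, a retinal-oxidising enzyme used as a stem cell marker, fell by 1.98 (adjusted p = 0.0095, edgeR) from levels of 0.230 to 2.21 CPM, and with all quality cells it had -0.35 (adjusted p = 0.682, edgeR). Its call was lost when TET2 alone chose the cells (-0.95) and without either library of day 9.

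**Figure D5:**
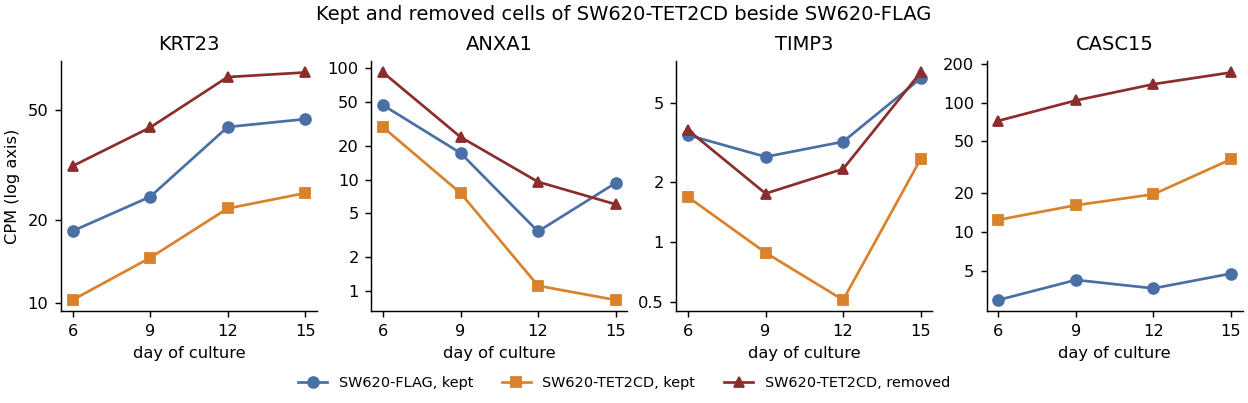
Level in CPM (y axis, log scale) by day (x axis) of KRT23, ANXA1, TIMP3 and CASC15 in kept SW620-FLAG cells (blue circles), kept SW620-TET2CD cells (orange squares) and removed SW620-TET2CD cells (red triangles), 1 library per point. KRT23 in kept SW620-TET2CD cells (10.3 to 25 CPM) lies below SW620-FLAG and in removed cells above it, and CASC15 rises from SW620-FLAG through kept to removed cells.

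The 10 genes with the highest ratio of removed to kept SW620-TET2CD cells were DKK4, SULT1C4, RAB25, AGR2, STRIT1, MAGEB2, C20orf204, PRAC1, HPGD and KRTCAP3, with mean log2 ratios from 3.91 down to 2.42. In the kept cells RAB25 and STRIT1 did not pass the filter on low counts and were not tested. Of the others, DKK4 and SULT1C4 (log2 fold change 2.13, adjusted p = 0.0342, edgeR) were called higher, against 0.418% of all tested genes. Both passed that filter through the SW620-TET2CD libraries, so their calls are no support for these genes as a set. SULT1C4, a sulfotransferase, stood at 0.142 to 0.425 CPM in SW620-FLAG against 0.502, 0.644, 0.743 and 2.93 CPM in SW620-TET2CD, and its log2 fold change ran from 1.28 without either library of day 15 to 3.35 when TET2 alone chose the cells. It reached the filter on low counts in 4 SW620-TET2CD libraries and 1 SW620-FLAG library. It was not called without any library of days 9 or 15, in cells with at least 5000 UMIs or with the rule applied to SW620-TET2CD only. AGR2, a protein disulfide isomerase of secretory cells, had 1.99, 0.672, 0.364 and 0.648 CPM against 4.58, 0.577, 0.886 and 2.35 CPM (log2 fold change 1.11, adjusted p = 0.0594, edgeR). It passed under 12 alternatives, DESeq2 among them, with a log2 fold change of up to 2.58 when TET2 alone chose the cells. MAGEB2, a cancer-testis gene, had a log2 fold change of 0.47 (adjusted p = 0.493, edgeR), against 2.71 with all quality cells. The part that such cells, uncounted at this depth, have in the higher genes was not tested beyond the stricter rule on these 10 genes, under which 260 genes were called, 66 higher and 194 lower.

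Whether the line difference changed with time was asked by setting days 12 and 15 against days 6 and 9. No gene of 16031 passed in the edgeR test (smallest adjusted p = 0.227), 649 had an unadjusted p under 0.05 and DESeq2 called 1. The fit has 2 residual degrees of freedom, and leaving out a library gave between 2 and 1742 genes, the highest number without SW620-FLAG day 12. Among the lists, 12 of 26 hypoxia targets, 9 of 25 replication genes and 6 of 28 protease list members had an unadjusted p under 0.05, against 4.05% of all tested genes. Of these, 11, 9 and 0 had a late minus early difference above 0, and the medians of the lists were 0.46, 0.46 and -0.32 on the log2 scale. The protease list was not alone in this, since its share of 21.4% had near equals, each also with 0 above 0. These were 3 of 14 genes of the TGF-β and BMP response (21.4%), 4 of 19 NF-κB targets and chemokines (21.1%) and 4 of 23 immediate early genes (17.4%). The share of cells with a dividing mark was also higher in SW620-TET2CD on days 12 and 15, and its part in the replication values was not tested. ANXA1 had a late minus early difference of -1.72 on the log2 scale (SE 0.41, adjusted p = 0.915, edgeR) and CD68 one of -0.99 (SE 0.24, adjusted p = 0.915, edgeR).

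Bulk RNA-seq of day 15, with 1 library of each line from inside and from outside the colonies, gave a second look at the named genes, although it also holds the cells that the rule removes. Each ratio is on the log2 scale, after 1 CPM was added to both values, and has no test. Of the 67 higher genes 61 were measured, and 37 of these (60.7%) were higher in SW620-TET2CD at both locations, against 34.9% of all such genes. Of 164 lower genes measured, 73 (44.5%) were lower at both, against 34.6%, and 53 were higher at both. CASC15 was higher by 2.90 inside and 4.73 outside, and IGFBP2 by 1.45 and 2.26. SERPINA1 was lower by 2.07 inside and 3.4 outside in SW620-TET2CD, with 550 and 470 TPM (a length-scaled share of transcripts) in the SW620-FLAG libraries against 127 and 47.3 TPM. PRSS2 had log2 ratios of -1.28 and -2.86, and KLK1 of -2.20 and -1.91. EPHA4, the named lower gene with the deepest fall, had -0.22 inside and 0.66 outside, so its fall was not seen at both locations. Of the 12 named higher genes 7 were higher at both locations and 2 lower at both, SOX5 with log2 ratios of -0.89 and -0.45 and BCL11A with -0.16 and -0.44. Of the 12 named lower genes 3 were lower at both locations and 4 higher at both. These 4 were ANXA1 (log2 ratios of 2.45 and 2.30), RGCC (1.75 and 0.77), CYTL1 (0.33 and 0.96) and ITGB7 (0.51 and 0.13). KRT23, with 0.90 and 1.83, and VIM, with 1.71 and 2.71, were also higher at both. Of the 9 lower protease list members, 3 were lower and 4 higher at both locations. SERPINA1 and PRSS2, given above, are among the 3, and the ratios of the 4 higher ones are not given here.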

How the data were processed

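Single-cell libraries (10x Genomics 3′ chemistry) were deposited as raw UMI counts per gene and barcode, made by the authors with Cell Ranger 4.0 against GRCh38. The deposited bulk tables hold RSEM expected counts and TPM. The submitters' notes also name Bowtie and mm10, although the gene identifiers are human, and the bulk values serve for ratios only. Bulk expected counts were rounded to whole numbers.

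Barcodes were filtered as stated in the results and doublets were not called. UMIs were summed per library over 36601 genes, the 5 genes were left out, and edgeR 4.0.16 in R 4.3.3 (filterByExpr, two-sided quasi-likelihood test after TMM scaling, Benjamini-Hochberg over all tested genes, threshold 0.05) fitted line and day, with 3 residual degrees of freedom. DESeq2 1.42.0 was an alternative. CPM are UMI counts scaled to a common library total after TMM factors. With 1 library per line and day, p-values measure the spread of the line difference between days. On simulated counts the test recovered all of 100 genes set to a 2-fold change for the line effect, and 83% for late minus early. For the line effect there were 14 false calls among 15663 unchanged genes. The changed genes were drawn only from those with a mean of at least 8 CPM. Of the called genes, 24 of 67 higher and 89 of 191 lower ones reached that level, and recovery below it was not simulated.

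Members, gene lists and tests were chosen with earlier results of these data known. Named genes are the 12 with the highest and the 12 with the lowest log2 fold change among called genes of known name that moved the same way on 4 of 4 days with a mean of at least 8 CPM, the list members, VEGFA, RORA and SPARC, and the 10 leading genes of the removed cells. Of 24 such genes, 20 were in the promoter table, as were 68.1% of tested genes, too few for a comparison of promoters between sets. Positions are from GENCODE v44 on GRCh38, matched by Ensembl identifier. Alternatives changed the test, scaling, filters, rule, depth and libraries used. Of the protease list, 1 gene is counted but not reported here by name.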

Additional observations from a re-analysis of the deposited data

Results flagged for a closer look

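RORA, a nuclear receptor the study names as a TET2 target, was lower in SW620-TET2CD on both early days and higher on both late days, on day 12 only slightly. On days 6 and 9 it stood at 4.34 and 4.09 CPM in SW620-FLAG against 2.60 and 1.82 CPM in SW620-TET2CD, so both early libraries of SW620-TET2CD were lower. On days 12 and 15 it stood at 7.25 and 3.87 CPM in SW620-FLAG against 7.63 and 4.98 CPM in SW620-TET2CD, so both late libraries were higher. The fitted late minus early difference was 1.15 on the log2 scale (standard error 0.25), and it did not pass adjustment over all genes (adjusted p = 0.869, unadjusted p = 0.000683, edgeR's quasi-likelihood test).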

How the results depend on the processing

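The number of genes called between the lines (258) stayed between 179 and 343 under most alternatives. It was 847 without the filter on low counts, 400 without upper limits on genes and UMIs, 88 without day 9 and 0 without the day block, and 83 to 254 with 1 library left out. When TET2 alone chose the cells 343 were called, 137 higher and 206 lower. Each line and day has 1 library, so the labels hold no replicate numbers to pair, and the day block pairs the libraries of both lines by day. Of 24 named genes, 18 kept their call under all 26 alternatives except the missing day block. The protease list had 14 lower members without the filter on low counts, 0 without the day block and 5 to 11 with 1 library left out. The late minus early count (0) was 1 with DESeq2, 34 without the filter on low counts and 2 to 1742 with 1 library left out, which leaves 1 residual degree of freedom. Some genes that passed no test changed sign. RORA, at -0.32, was at 0.056 in cells with none of the dividing marks. LGR5, at -0.01, was at 0.011 with DESeq2, 0.013 with upper-quartile scaling, 0.017 with the rule on the other 4 genes, 0.040 with a mitochondrial limit of 20%, 0.018 without upper limits, 0.135 in cells with none of the dividing marks, 0.122, 0.033 and 0.019 without days 6, 9 and 12, and from -0.189 to 0.122 with 1 library left out. DNMT1, at 0.09, was at -0.0075 in cells with none of the dividing marks, -0.041 without day 12 and from -0.042 to 0.175 with 1 library left out. ZEB1, at 0.01, was at -0.032 when TET2 alone chose the cells, -0.0041 with the other 4 genes, -0.0067 in cells with at least 5000 UMIs, -8.63e-05 without the 8% of cells with most UMIs, -0.0090 with the mitochondrial limit of 20%, -0.0062 without upper limits, -0.0045 and -0.100 without days 6 and 15, and from -0.098 to 0.077 with 1 library left out. The mean difference in median UMIs ran from -1684 to 1468 with 1 day's library left out, and the difference in removed share from 23.7 to 26.9 percentage points. The causes of these shifts were not tested. Depth limits the rule itself, since a molecule of the 5 genes in a shallow cell may go uncounted.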
